A study of Mus musculus with 8 samples.

Results

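The subject is the state of WT cells reprogrammed under Repsox, set against every other group of the series. WT Repsox is represented by 2 of the 8 libraries. Genes were called state-specific where the CPM values (the count of a gene over the total of its library, times 1000000) of both WT Repsox libraries lay at least 2-fold above, or at least 2-fold below, those of all 6 other libraries. By this rule 493 of the 26930 genes in the table (1.83%) were higher and 130 (0.483%) were lower. These values chose the genes, so they are given below as a description and carry no test.

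RNA was sequenced on day 8 from mouse embryonic fibroblasts during reprogramming with the OKSM factors, in a medium that the labels name AGi. WT Repsox cells received 250 nM Repsox, an inhibitor of the type I TGF-beta receptor. The other groups were WT cells with 2.5 ng/ml TGF-beta1, K36M cells with 250 nM Repsox and K36M cells with 2.5 ng/ml TGF-beta1, with 2 libraries each. K36M is a histone H3 in which methionine replaces a lysine that is normally methylated. How it was introduced, whether every cell expressed it, and what the name H3 given to the WT libraries stands for are not stated by the labels. All groups shared OKSM reprogramming, the medium and the day. No group without Repsox and TGF-beta was among them, so an effect of either agent alone cannot be told apart. Whether the 2 libraries of each group are separate cultures or animals is not stated either, and if they are not, p-values reflect the spread between libraries alone, which may be technical.

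Totals ran from 10928302 to 15594217 counts per library. Libraries of the same group correlated at a Spearman's rho of 0.966 to 0.97 across genes. In the principal component analysis of log2 CPM, the second component (18.9% of the variance) placed the WT Repsox libraries at 77.73 and 77.08 and the other 6 libraries between -61.9 and 4.21. The first component (65.6%) placed them between the WT TGF-beta and the K36M libraries. The WT Repsox libraries differed from each other by more than counting error, with a chi-square per degree of freedom of 9.09 against 2.7 in the group with the closest libraries. Among the genes behind that sum, the locus AY036118 and the predicted locus AC157822.1 gave 10.3% and 6.27% of it.

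As background, reprogramming of fibroblasts runs through the loss of mesenchymal genes and the gain of epithelial genes before pluripotency genes are switched on. TGF-beta signals through receptor kinases and Smad proteins, keeps mesenchymal and contractile genes on and opposes this transition. Bone morphogenetic proteins (BMPs) signal through a parallel Smad branch whose best known targets are the Id genes.

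The genes proposed as markers of the state met the rule. Thy1 (ENSMUSG00000032011, chromosome 9, 43851467 to 43856662 on mm9) encodes a surface glycoprotein of fibroblasts that is lost early in reprogramming. It stood at 567 and 581 CPM in WT Repsox, 23.4 and 27.9 in WT TGF-beta, 15.0 and 14.4 in K36M Repsox, and 38.8 and 38.4 in K36M TGF-beta. Both WT Repsox libraries were at least 14.6-fold above every other library, and the fitted log2 difference from the mean of the 3 other groups was 4.47 ± 0.06 (SE). That mean, here and below, is of log2 levels, so a group with a very low level pulls it down. Tbx2 (ENSMUSG00000000093, chromosome 11, 85646053 to 85655450), a T-box transcription factor of limb and heart development, stood at 20.6 and 19.3 CPM in WT Repsox. In the same order of groups it stood at 0.392 and 0.962, 1.54 and 1.83, and 0.719 and 0.275 CPM, a gap of 10.6-fold. Atoh8 (ENSMUSG00000037621, chromosome 6, 72156171 to 72185571) encodes a basic helix-loop-helix factor. Its values were 30.7 and 28.6 CPM in WT Repsox, then 0.47 and 0.962, 6.63 and 6.81, and 0.4 and 1.28 CPM, a gap of 4.19-fold. For Atoh8 and Tbx2 the nearest group was K36M Repsox, and for Thy1 it was K36M TGF-beta. Fewer cells of a type and less RNA per cell cannot be told apart in such bulk libraries.

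**Figure D1:**
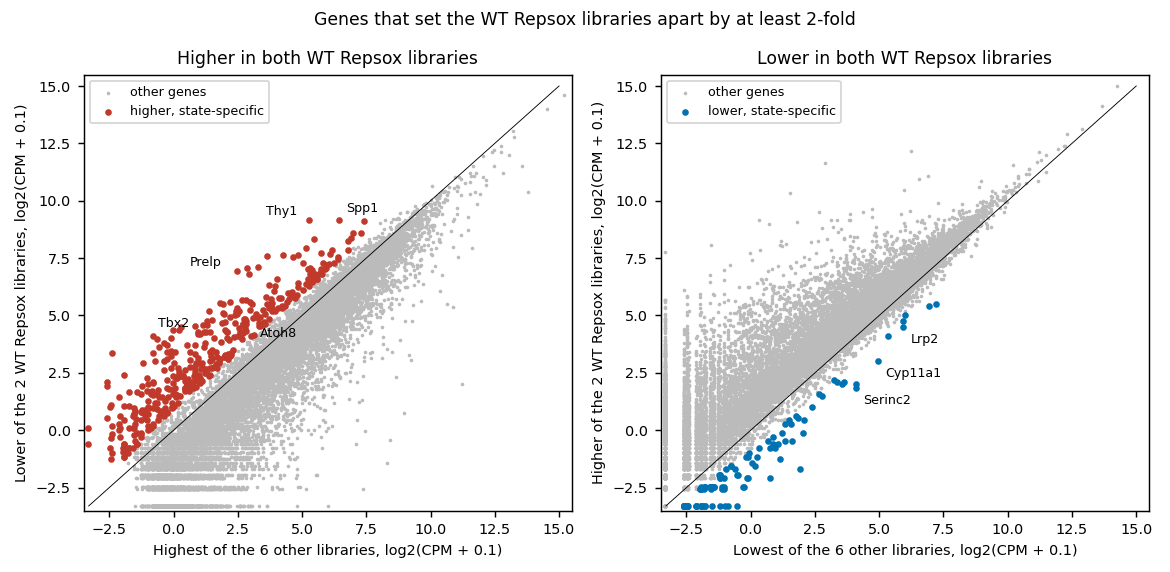
Each point is a gene with a summed count of at least 20, plotted on log2(CPM + 0.1) axes. The left panel sets the lower of the WT Repsox libraries against the highest of the 6 other libraries, the right panel the higher of the WT Repsox libraries against the lowest other; state-specific genes are coloured, grey points are all other genes, and the line marks equal values, from which Thy1 lies at least 14.6-fold above.

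Of the 493 higher genes, 372 had a summed count of at least 20, 350 passed the filter on low counts for edgeR (2.22% of 15789 tested genes), and 238 had a mean of at least 5 CPM in WT Repsox. In 69 of the 493 all 6 other libraries were at 0. The 238 better read genes had a median gap of 3.52-fold, and the gap reached 4-fold for 104 and 8-fold for 48. The nearest group, which holds the highest other mean, was WT TGF-beta for 110 of them, K36M Repsox for 85 and K36M TGF-beta for 43. Of the 130 lower genes, 115 had a summed count of at least 20, 78 were tested (0.494% of tested genes), and 16 had at least 5 CPM in each of the 3 other groups. In 50 of the 130 both WT Repsox libraries were at 0.

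The number of lower genes depended on how libraries were scaled. With totals scaled by TMM factors, which allow for a few abundant genes, the 238 higher and 16 lower genes became 208 and 25, and with DESeq2 size factors 208 and 29. At the limit of the rule, Plekho2 lay just inside at 2.006-fold and Prrx1, a mesenchymal homeobox gene, just outside at 1.999-fold. Among lower genes Pak1 lay inside at 2.024-fold and Tnfsf9 outside at 1.966-fold. The same rule gave 1033 higher and 2241 lower genes for WT TGF-beta, 722 and 571 for K36M Repsox, and 498 and 159 for K36M TGF-beta.

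**Figure D2:**
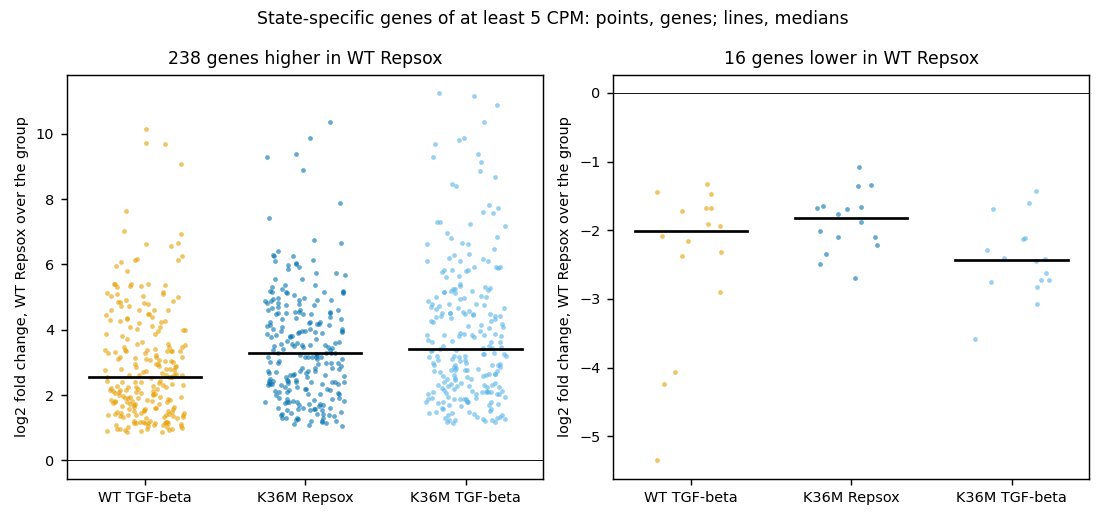
Points are the state-specific genes of at least 5 CPM (238 higher on the left, 16 lower on the right), and the vertical axis is the fitted log2 fold change of WT Repsox over each other group, with lines at the medians. The medians of the higher genes were 2.56, 3.27 and 3.4 against WT TGF-beta, K36M Repsox and K36M TGF-beta, and those of the lower genes -2.01, -1.83 and -2.43; the rule fixed the direction of every point.

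Several of the higher genes with the largest gaps were nearly unread elsewhere. Twist2, a basic helix-loop-helix factor of mesenchyme, stood at 22.7 and 20.8 CPM against at most 0.898 CPM elsewhere. Prelp, a leucine-rich matrix proteoglycan, stood at 122 and 125 CPM in WT Repsox, 0.392 and 1.73 in WT TGF-beta, 5.22 and 5.4 in K36M Repsox, and 0.799 and 1.19 in K36M TGF-beta. Serpinf1, which encodes the secreted antiangiogenic factor PEDF, stood at 135 and 141 CPM against at most 7.15 CPM elsewhere. For each of these genes the WT Repsox libraries lay close together and no other library came near them. Also among the 15 largest gaps were Mmp3, Tspan11, Ptn, Kcnj2, Csmd1, Pamr1, Clca1, Sp7, Slc14a1 and Cck. Of these Kcnj2 is a potassium channel, Slc14a1 a urea transporter, and Cck the peptide cholecystokinin.

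Bone markers that met the rule were Spp1 (osteopontin) and Sp7 (osterix, a transcription factor of osteoblasts). Spp1 stood at 581 and 718 CPM in WT Repsox, 6.19 and 13.5 in WT TGF-beta, 73.2 and 86.6 in K36M Repsox, and 39.6 and 35.7 in K36M TGF-beta. Sp7 stood at 13.8 and 13.7 CPM against at most 0.665 CPM elsewhere. Of the 9 tested markers of cartilage and bone, 3 were called higher and 1 lower than the mean of the 3 other groups, where 27.2% of all tested genes were called higher and 19.1% lower (edgeR's quasi-likelihood test, Benjamini-Hochberg adjusted p under 0.05). Against WT TGF-beta 6 were higher and 3 lower (median log2 difference 2.91), where 33.4% and 29% of all were called. Against K36M Repsox 4 were higher and 4 lower (-0.2), where 26.9% and 28.8% of all were called. Against K36M TGF-beta 3 were higher and 4 lower (-0.63), where 27% and 26.6% of all were called. The list as a whole was thus not higher than in the K36M groups.

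**Figure D3:**
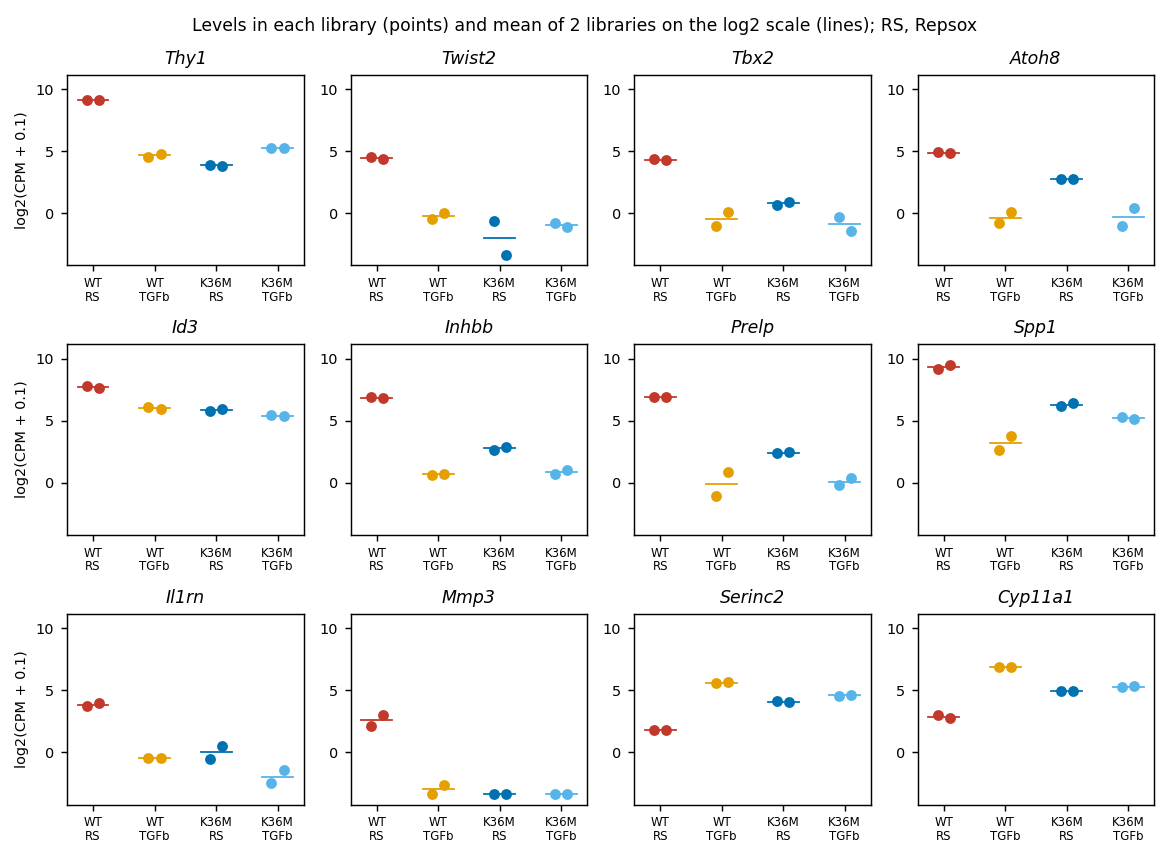
Each panel shows a state-specific gene, with log2(CPM + 0.1) on the vertical axis, a point for each library and a line at the mean of the 2 libraries on that scale. In the first 10 panels both WT Repsox points lie above all others, by the rule; in those of Serinc2 and Cyp11a1 they lie below, and Thy1 stands at 567 and 581 CPM there against at most 38.8 CPM elsewhere.

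Mesenchymal and fibroblast genes stood higher in WT Repsox than in the K36M groups, and as a sum highest in WT TGF-beta. Of 34 tested genes in this list, 26 were higher and 3 lower in WT Repsox than in the mean of the 3 other groups. In that comparison 27.2% of all tested genes were called higher and 19.1% lower. The list's median log2 difference was 1.48 beside 0.04 over all tested genes. Against WT TGF-beta 12 were higher and 18 lower (median -0.72), where 33.4% and 29% of all tested genes were called and the median of all was 0.07. Against K36M Repsox 31 were higher and 0 lower (median 3.83), where 26.9% and 28.8% of all were called and the median of all was -0.04. Against K36M TGF-beta 27 were higher and 4 lower (median 2.25), where 27% and 26.6% of all were called and the median of all was 0.0. These comparisons share the WT Repsox libraries, and list counts include the state-specific genes, whose side the rule fixed. The shares and medians of all tested genes given here apply to the lists below as well. The list's summed level was 9628 to 10184 CPM in WT Repsox, 28750.3 to 30395 in WT TGF-beta, 2974 to 2985 in K36M Repsox and 4683 to 5064 in K36M TGF-beta.

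State-specific were 10 of the 37 mesenchymal genes in the table, each on the high side: Fap, S100a4, Twist2, Col6a2, Pdgfrb, Pdgfra, Cdh11, Thy1, Twist1 and Lum. Col6a2, a chain of collagen VI, stood at 347 and 325 CPM in WT Repsox, 27.7 and 36.2 in WT TGF-beta, 17.6 and 20.4 in K36M Repsox, and 33.4 and 44.6 in K36M TGF-beta. S100a4, a calcium-binding protein used as a fibroblast marker, stood at 79.8 and 93.6 CPM, with 11.0 and 13.2 in WT TGF-beta and at most 2.56 in the K36M libraries. Pdgfra, a platelet-derived growth factor receptor of mesenchymal progenitors, stood at 58.3 and 55.8 CPM, with 9.24 and 11.9 in K36M Repsox and at most 3.21 elsewhere. Cdh11, the mesenchymal cadherin, and Twist1 had WT TGF-beta as the nearest group. Cdh11 stood at 129 and 148 CPM against 53.3 and 51.9 there, and at no more than 1.65 CPM in the K36M libraries. Lum, the proteoglycan lumican, had 101 reads in WT Repsox and 6 in the 6 other libraries together, a ratio of rates of 49.1 (exact 95% interval 21.8 to 137, counting error only). Such intervals, here and below, are of genes that the rule chose on the same reads, and are no test.

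Other mesenchymal genes did not follow this pattern. Vim, which encodes the intermediate filament vimentin, stood at 1955 and 1909.6 CPM in WT Repsox, 4410.4 and 4569 in WT TGF-beta, 94.5 and 114 in K36M Repsox, and 309 and 347 in K36M TGF-beta. It was lower in WT Repsox than in WT TGF-beta (log2 -1.42 ± 0.07, edgeR adjusted p = 2.28e-14) and higher than in K36M Repsox (4.19 ± 0.08, adjusted p = 1.43e-20). Col1a1, the main fibrillar collagen chain, likewise lay between the groups, at 464 and 359 CPM against 2003 and 2313 in WT TGF-beta, 29.6 and 39 in K36M Repsox and 313 and 313 in K36M TGF-beta. Its log2 difference was -2.6 ± 0.11 from WT TGF-beta and 0.39 ± 0.1 from K36M TGF-beta (edgeR adjusted p = 2.23e-15 and 0.00326).

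Among T-box factors, 9 of 13 tested were higher than the mean of the 3 other groups and 0 lower (median 0.95). Over all tested genes these shares were 27.2% and 19.1%. Of the T-box factors Tbx2 was state-specific. The related gene Tbx3, which also has a role in pluripotency, stood at 131 and 112 CPM in WT Repsox but at 191 and 187 in K36M Repsox (log2 -0.66 ± 0.1, edgeR adjusted p = 6.21e-06). Tbx15 and Tbx18, factors of limb and somite mesenchyme, were highest in WT TGF-beta, at 34.1 and 32.7 CPM and at 46.2 and 45.1 CPM. In WT Repsox they stood at 18.0 and 17.2 CPM and at 7.48 and 10.7 CPM.

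BMP and Id genes were mostly higher in the state. Of 29 tested, 19 were higher and 4 lower than the mean of the 3 other groups (median 1.61). Over all tested genes these shares were 27.2% and 19.1%. Against the single groups the counts were 15 and 9 for WT TGF-beta, 19 and 5 for K36M Repsox, and 20 and 3 for K36M TGF-beta (medians 0.77, 1.32 and 1.57). State-specific were 7 of 30: Id1, Id3, Bmp2, Grem1, Atoh8, Dlx1 and Msx1. Id3, an inhibitor of differentiation that blocks basic helix-loop-helix factors, stood at 224 and 202 CPM in WT Repsox, 68.6 and 62.8 in WT TGF-beta, 56.2 and 61.5 in K36M Repsox, and 43.6 and 41.3 in K36M TGF-beta. Id1 stood at 167 and 156 CPM against 43.5 to 56.1 CPM in the other 6 libraries. Id2, which was not state-specific, stood at 73.6 and 106 CPM against 46.8 and 49.5 in K36M Repsox (log2 0.87 ± 0.12, edgeR adjusted p = 2.62e-06).

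The ligand gene Bmp2 stood at 9.76 and 10.4 CPM in WT Repsox, 0.94 and 1.67 in WT TGF-beta and at most 0.332 in the K36M libraries. Grem1, which encodes the secreted BMP antagonist gremlin, stood at 198 and 267 CPM in WT Repsox, 28.8 and 27.1 in WT TGF-beta, 3.08 and 2.91 in K36M Repsox, and 0.24 and 1.1 in K36M TGF-beta. A BMP ligand and a BMP antagonist were both at their highest in WT Repsox. Bmp4, another ligand, stood at 16.3 and 15.0 CPM against 8.03 and 9.14 in K36M Repsox, a called difference that did not meet the rule (log2 0.85 ± 0.19, edgeR adjusted p = 0.000704). Smad6, the inhibitory Smad of the BMP branch, stood at 17.7 and 16.4 CPM and was higher than in the mean of the 3 other groups (1.12 ± 0.14, edgeR adjusted p = 7.18e-07). Dlx1, a homeobox factor, and its antisense gene Dlx1as both met the rule. No strand setting of the counting was given in these sources, so their reads cannot be told apart.

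The promoter of Atoh8 is shown because the gene marks the state and its window holds an E-box, the class of sites that basic helix-loop-helix factors bind. It covers the 250 bases before the RefSeq start at chr6:72235578-72235827 (GRCm38.p6, minus strand, 5′ to 3′). Capitals mark the letters CACGTG, which began 230 bases before the start and which 6.86% of the 27025 genes with a listed promoter also hold on either strand. A match of letters is a description and not a binding site.
Atoh8: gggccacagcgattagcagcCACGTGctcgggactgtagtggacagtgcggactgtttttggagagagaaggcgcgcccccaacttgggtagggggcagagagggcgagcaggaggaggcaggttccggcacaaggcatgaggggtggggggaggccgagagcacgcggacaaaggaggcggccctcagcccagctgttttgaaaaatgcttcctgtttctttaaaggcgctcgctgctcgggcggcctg

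Components of the TGF-beta pathway moved in both directions. Of 24 tested, 11 were higher and 6 lower than the mean of the 3 other groups (median 0.17). Over all tested genes these shares were 27.2% and 19.1%. State-specific were Inhbb, Tgfbr3 and Ltbp1. Inhbb, which encodes the beta B subunit of activins and inhibins, stood at 124 and 113 CPM in WT Repsox, 1.49 and 1.54 in WT TGF-beta, 6.09 and 7.56 in K36M Repsox, and 1.52 and 1.92 in K36M TGF-beta. The coreceptor gene Tgfbr3 (betaglycan) stood at 109.6 and 97.3 CPM against 2.27 and 2.95, 12.6 and 16.3, and 7.91 and 10.5 CPM. For both genes K36M Repsox was the nearest group. Ltbp1, whose product anchors the latent form of TGF-beta, instead lay nearest to WT TGF-beta, at 337 and 348 CPM against 121 and 116 there and at most 25 CPM in the K36M libraries.

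Genes known to respond to TGF-beta were lower than in WT TGF-beta and went in both directions against K36M Repsox, which received the same inhibitor. Of 21 tested, 6 were higher and 12 lower than the mean of the 3 other groups (median -0.44). Over all tested genes these shares were 27.2% and 19.1%. The counts were 3 higher and 16 lower against WT TGF-beta (median -1.74), 11 higher and 6 lower against K36M Repsox (median 0.49), and 6 and 12 against K36M TGF-beta (-0.33). Ltbp2, a matrix protein related to the latency proteins, and Angptl4, a secreted lipase inhibitor, are on this list and were state-specific on the high side. Ltbp2 stood at 461 and 382 CPM against 121 and 125 in WT TGF-beta and at most 21.0 in the K36M libraries. Smad7, the inhibitory Smad, lay at 71.2 and 68.5 CPM, below WT TGF-beta (303 and 305 CPM) and above K36M Repsox (49.8 and 48.0 CPM). The log2 difference from K36M Repsox was 0.49 ± 0.09 (edgeR adjusted p = 5.38e-05).

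Contractile genes were mostly lower than in the TGF-beta groups, and none of the 16 met the rule of the state. Of the 16 tested, 0 were higher and 15 lower than the mean of the 3 other groups (median -1.13), of which 2 received TGF-beta1. Over all tested genes these shares were 27.2% and 19.1%. The counts were 1 higher and 14 lower against WT TGF-beta (median -1.73), 0 and 14 against K36M TGF-beta (-1.25), and 3 and 9 against K36M Repsox (-0.4). Tagln, the smooth muscle actin-binding protein transgelin, stood at 9.62 and 11.0 CPM in WT Repsox, 558 and 574 in WT TGF-beta, 10.8 and 11.6 in K36M Repsox, and 184 and 181 in K36M TGF-beta. The difference between the Repsox groups did not pass the test for Tagln (log2 -0.14 ± 0.12, edgeR adjusted p = 0.321). For Acta2, smooth muscle actin, WT Repsox stood at 27.1 and 31.8 CPM, above 13.0 and 12.2 in K36M Repsox (1.2 ± 0.11, edgeR adjusted p = 5.67e-09) and below 557 and 627 in WT TGF-beta.

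**Figure D4:**
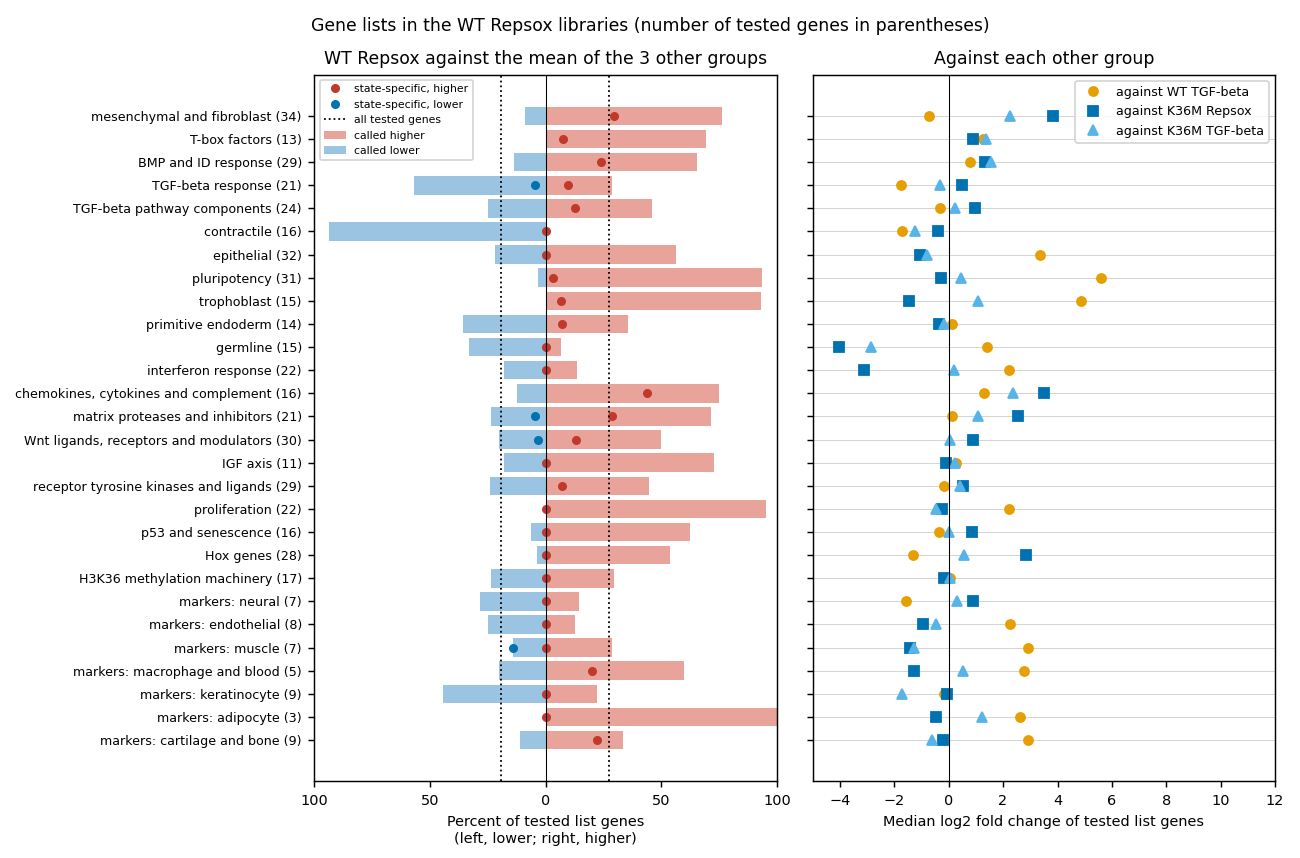
The left panel gives, for each gene list, the percent of its tested genes called higher (right of 0) and lower (left of 0) in WT Repsox than in the mean of the 3 other groups, with dotted lines at the 27.2% and 19.1% of all tested genes and dots for the share that was state-specific. The right panel gives the median log2 fold change of each list against each other group, from 5.59 for pluripotency genes against WT TGF-beta to -4.02 for germline genes against K36M Repsox.

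Chemokine, cytokine and complement genes were higher than in the mean of the 3 other groups for 12 of 16 tested, with 2 lower (median 2.36). Over all tested genes these shares were 27.2% and 19.1%. Of the 23 list genes read here, 10 were state-specific, each on the high side. Csf1, the growth factor of macrophages, stood at 238 and 231 CPM in WT Repsox, 60.9 and 56.6 in WT TGF-beta, 72 and 72.3 in K36M Repsox, and 40.4 and 40.6 in K36M TGF-beta. Serping1, the inhibitor of complement C1, stood at 39.6 and 43.6 CPM against at most 14.2 CPM elsewhere, in K36M Repsox. Il1rn, the interleukin-1 receptor antagonist, stood at 13.0 and 16.0 CPM against at most 1.33 CPM. All 3 had both WT Repsox libraries clear of the rest. At lower levels, Cxcl12 stood at 8.86 and 8.38 CPM in WT Repsox, Il33 at 5.12 and 5.27, and Cxcl5 at 4.29 and 5.27. Ccl8, Ccl11 and Tslp met the rule with 8, 6 and 9 reads in WT Repsox. Ccl11 had 0 reads elsewhere, which makes it at least 5.84-fold higher with a floor of 3 counts over the 6 other libraries.

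Macrophage and blood markers were read at a low level in every group, with a summed level over 10 genes of 31.8 to 32.9 CPM in WT Repsox, 26.2 to 28.1 in WT TGF-beta, 90.8 to 91.7 in K36M Repsox and 36 to 43.4 in K36M TGF-beta. Of them Lyz2, lysozyme, was state-specific, with 118 reads in WT Repsox and 28 in the 6 other libraries (ratio of rates 12.3, interval 8.09 to 19.3). Adipocyte markers summed to 51.1 to 55.1 CPM in WT Repsox, 18.9 to 20.1 in WT TGF-beta, 60.6 to 66.4 in K36M Repsox and 14.6 to 16.7 in K36M TGF-beta, and 3 of the 3 tested were higher than the mean of the 3 other groups. Against K36M Repsox 0 of the tested adipocyte markers were higher and 2 lower (median -0.46). Other adipocyte markers, Plin1, Fabp4 and Cd36, met the rule with 21, 19 and 18 reads in WT Repsox and were not tested. For endothelial, neural and muscle markers the counts were 1 higher and 2 lower of 8, 1 and 2 of 7, and 2 and 1 of 7 against the mean of the 3 other groups. Keratinocyte markers gave 2 higher and 4 lower of 9. In the same comparison 27.2% of all tested genes were called higher and 19.1% lower. The part of such cells in any result was not tested.

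Matrix proteases and their inhibitors held 15 higher and 5 lower genes of 21 tested against the mean of the 3 other groups (median 0.59), beside 27.2% and 19.1% of all tested genes. The counts were 9 and 9 against WT TGF-beta (median 0.13), 17 and 2 against K36M Repsox (2.55), and 13 and 3 against K36M TGF-beta (1.06). The list's summed level was 1231 to 1249 CPM in WT Repsox and 3788 to 3887 in WT TGF-beta. It was 516 to 533 CPM in K36M Repsox and 998 to 1079 in K36M TGF-beta. Of 22 list genes 7 were state-specific. On the high side were Mmp3, Mmp10, Mmp13, Mmp19, Adamts2 and Plat. Plat, tissue plasminogen activator, stood at 25.1 and 24.7 CPM in WT Repsox against 3.82 to 6.39 CPM in the other 6 libraries. Mmp3, stromelysin-1, had 61 and 103 reads in WT Repsox and 1 read in the 6 other libraries, a ratio of rates of 479 (interval 84.7 to 19025). Mmp10, stromelysin-2, stood at 4.08 and 3.51 CPM, and Mmp13, collagenase-3, at 3.95 and 3.27 CPM. Elsewhere Mmp10 reached 1.28 and Mmp13 0.898 CPM, both in WT TGF-beta.

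Mmp3 and Mmp10 are neighbours on chromosome 9 (7445822 to 7510238 on mm9). Promoters of the 3 metalloproteases are shown because these genes were read together in the state. Each window is the 250 bases before the RefSeq start on GRCm38.p6 (plus strand, 5′ to 3′): chr9:7445572-7445821 for Mmp3, chr9:7502092-7502341 for Mmp10 and chr9:7272264-7272513 for Mmp13. Capitals mark matches to TGANTCA, the letters of an AP-1 site, and to TATAAA, those of a TATA box, each searched on both strands.
Mmp3: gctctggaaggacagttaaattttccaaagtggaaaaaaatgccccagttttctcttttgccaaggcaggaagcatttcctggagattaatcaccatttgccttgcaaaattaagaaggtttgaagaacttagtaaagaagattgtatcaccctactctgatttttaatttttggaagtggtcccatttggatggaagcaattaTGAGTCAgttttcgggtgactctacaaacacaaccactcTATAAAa
Mmp10: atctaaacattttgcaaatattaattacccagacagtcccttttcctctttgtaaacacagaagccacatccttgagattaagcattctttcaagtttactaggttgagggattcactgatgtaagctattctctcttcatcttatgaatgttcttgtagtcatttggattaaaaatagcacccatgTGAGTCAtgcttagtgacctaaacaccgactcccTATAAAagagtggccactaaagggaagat
Mmp13: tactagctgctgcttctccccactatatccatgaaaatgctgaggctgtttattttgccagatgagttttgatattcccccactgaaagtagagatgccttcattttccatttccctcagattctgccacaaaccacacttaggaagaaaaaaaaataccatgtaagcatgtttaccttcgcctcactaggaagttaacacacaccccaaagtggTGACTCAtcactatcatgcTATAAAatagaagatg

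The AP-1 letters began 46 bases before the start in Mmp3, 63 in Mmp10 and 35 in Mmp13, and the TATA letters 7, 29 and 16 bases before it. Of the 27025 genes with a listed promoter, 7.82% held TGANTCA, 14.3% held TATAAA and 1.45% held both in the same window. A window was found for 145 of the 238 higher genes of at least 5 CPM. Of these 8.28% held TGANTCA, 17.2% held TATAAA and 1.38% held both. Among the 10571 of 15789 tested genes with a window the shares were 5.84%, 8.19% and 0.709%. The shares leave out the genes without a window and carry no test.

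On the list of Wnt ligands, receptors and modulators 15 of 30 tested genes were higher and 6 lower than the mean of the 3 other groups (median 0.55, or 0.34 with genes at 0 set to their bound). Over all tested genes these shares were 27.2% and 19.1%. The genes of this list that met the rule encode secreted modulators; Wnt16, a ligand that is not on the list, met it as well. Sfrp1, a secreted Frizzled-like inhibitor, stood at 146 and 162 CPM in WT Repsox, 10.2 and 12.6 in WT TGF-beta, 25.8 and 24.1 in K36M Repsox, and 61.7 and 60.0 in K36M TGF-beta. Dkk3, a member of the Dickkopf family, stood at 27.5 and 23.5 CPM against at most 10.3 CPM elsewhere. Dkk2, an antagonist of Wnt coreceptors, stood at 5.61 and 8.46 CPM, and Wif1, which binds Wnt proteins, at 2.35 and 2.39 CPM. The agonist genes Rspo1 and Rspo3 met the rule on the low side, with 0 reads in WT Repsox. Rspo1 had 51 reads in the 6 other libraries and was at least 5.82-fold lower than in these pooled (floor of 3 counts over WT Repsox). Rspo3 had 39 reads there and was at least 4.45-fold lower than in the pool. These bounds do not hold for each group. Rspo3 stood at 0.705 and 1.35 CPM in WT TGF-beta, 0.134 and 0.332 in K36M Repsox, and 0.0799 and 0.183 in K36M TGF-beta.

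Of 29 tested receptor tyrosine kinases and ligands 13 were higher and 7 lower than the mean of the 3 other groups (median 0.6, or 0.26 at the bound), beside 27.2% and 19.1% of all tested genes. The counts were 13 and 12 against WT TGF-beta (median -0.17), 14 and 9 against K36M Repsox (0.52), and 15 and 9 against K36M TGF-beta (0.43). Fgf7 and Fgf10, fibroblast growth factors made by mesenchyme for epithelial cells, met the rule at 5.12 and 5.75 CPM and at 3.39 and 4.63 CPM. Fgf10 was nearest in K36M Repsox, at 1.27 and 1.25 CPM, and Fgf7 in WT TGF-beta, at 0.313 and 0.898 CPM. In the insulin-like growth factor axis 8 of 11 were higher and 2 lower than the mean of the 3 other groups (median 0.54), and 0 were state-specific. Here the counts were 6 and 5 against WT TGF-beta (median 0.27), 5 and 5 against K36M Repsox (-0.09), and 4 and 3 against K36M TGF-beta (0.23). Igfbp5, a binding protein of these factors, stood at 50.3 and 45.5 CPM, between 424 and 438 in WT TGF-beta and at most 2.32 in the K36M libraries.

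Epithelial and pluripotency genes were read in the same WT Repsox libraries as the mesenchymal genes. Of 32 epithelial genes 18 were higher and 7 lower than the mean of the 3 other groups (median 0.41), and 0 met the rule. Over all tested genes 27.2% were called higher and 19.1% lower. That mean is of log2 levels, and the list was lowest in WT TGF-beta. The list's summed level was 4359 to 4499 CPM in WT Repsox and 1448 to 1563 in WT TGF-beta. It was 9226 to 9422 CPM in K36M Repsox and 8158 to 8301 in K36M TGF-beta. The list was higher than in WT TGF-beta (28 higher and 3 lower, median 3.34) and lower than in K36M Repsox (0 and 29, -1.04) and K36M TGF-beta (1 and 26, -0.8). Cdh1, the epithelial cadherin, stood at 684 and 718 CPM in WT Repsox, 37.4 and 20.6 in WT TGF-beta, 1406 and 1377 in K36M Repsox, and 1135 and 1181 in K36M TGF-beta. Its log2 difference from K36M Repsox was -1.01 ± 0.11 (edgeR adjusted p = 8.81e-08). For Epcam, another adhesion molecule, the log2 difference from the mean of the 3 other groups was 0.42 ± 0.11 (edgeR adjusted p = 0.00377). DESeq2's Wald test did not call it (0.39, adjusted p = 0.312). Epcam was higher than in WT TGF-beta (3.38 ± 0.17) but lower than in K36M Repsox (-0.71 ± 0.13) and K36M TGF-beta (-1.4 ± 0.13). Their edgeR adjusted p-values were 6.06e-14, 0.000101 and 9.99e-09.

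Pluripotency genes numbered 29 higher and 1 lower of 31 against the mean of the 3 other groups (median 1.82). Over all tested genes these shares were 27.2% and 19.1%. Against WT TGF-beta pluripotency genes were 30 and 1 (median 5.59), against K36M Repsox 6 and 16 (-0.29), and against K36M TGF-beta 19 and 3 (0.45). Nanog, which encodes a core factor of pluripotent cells, stood at 133 and 120.4 CPM in WT Repsox, 12.6 and 2.89 in WT TGF-beta, 102 and 111 in K36M Repsox, and 106 and 110 in K36M TGF-beta. It differed from WT TGF-beta by 3.89 ± 0.25 on the log2 scale (edgeR adjusted p = 5.65e-12). The differences from K36M Repsox and K36M TGF-beta, 0.23 ± 0.19 each, did not pass (edgeR adjusted p = 0.314 and 0.329). Sall1, a zinc finger factor of the list, was state-specific, at 77.5 and 63.5 CPM against at most 21.6 CPM elsewhere.

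Trophoblast genes were 14 higher and 0 lower of 15 (median 1.59), with 15 and 0 against WT TGF-beta (4.87), 2 and 11 against K36M Repsox (-1.46), and 10 and 1 against K36M TGF-beta (1.07). Tfap2a, an AP-2 factor, was state-specific among them, at 34.5 and 42.2 CPM against at most 3.74 CPM elsewhere. Of 22 proliferation genes 21 were higher and 0 lower than the mean of the 3 other groups (median 0.51). For both lists the shares over all tested genes were 27.2% and 19.1%. Against WT TGF-beta the counts of proliferation genes were 22 and 0 (median 2.2), against K36M Repsox 3 and 14 (-0.25), and against K36M TGF-beta 5 and 14 (-0.45).

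Transgenes and endogenous genes can both give reads of the OKSM factors, which were read in every library. Klf4 stood at 493 and 470.4 CPM in WT Repsox, 628 and 613 in WT TGF-beta, 179.5 and 179 in K36M Repsox, and 199 and 231 in K36M TGF-beta. Pou5f1, which encodes Oct4, stood at 432 and 396 CPM against 396 and 372, 212 and 212, and 319 and 323 CPM. Both were higher than the mean of the 3 other groups (log2 0.66 ± 0.06 and 0.4 ± 0.06, edgeR adjusted p = 1.21e-09 and 2.69e-06). Sox2 and Myc were higher than that mean as well (0.62 ± 0.06 and 0.59 ± 0.05, edgeR adjusted p = 1.18e-08 and 5.74e-09). Sox2 stood at 296 and 281 CPM in WT Repsox, 288 and 277 in WT TGF-beta, 185 and 179 in K36M Repsox, and 104 and 117 in K36M TGF-beta. Myc stood at 389 and 369.5 CPM against 525 and 509, 132 and 142, and 191 and 193 CPM. Against WT TGF-beta alone Myc and Klf4 were lower (-0.65 ± 0.07 and -0.57 ± 0.07, edgeR adjusted p = 1.84e-08 and 2.3e-07). For Sox2 the fitted difference from WT TGF-beta was -0.18 ± 0.07 with TMM scaling (edgeR adjusted p = 0.0445), while the CPM values on library totals were slightly higher in WT Repsox. The levels of Klf4, Pou5f1, Sox2 and Myc were all lower in both K36M groups than in both WT groups, and their part in the results was not tested.

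The genes H3f3a and H3f3b encode a variant of histone H3, and a gene count does not separate a mutant from a normal transcript. H3f3a stood at 104 and 108 CPM in WT Repsox and 58.3 and 58.3 in K36M Repsox (log2 0.84 ± 0.08, edgeR adjusted p = 1.55e-08). In WT TGF-beta it stood at 86.7 and 89.5 CPM, and in K36M TGF-beta at 92.2 and 88.5 CPM. H3f3b stood at 253 and 259 CPM in WT Repsox against 271 and 278 in K36M Repsox (-0.12 ± 0.07, edgeR adjusted p = 0.16). It stood at 201 and 198 CPM in WT TGF-beta, and was lower in WT Repsox than in K36M TGF-beta, at 346 and 318 CPM (-0.38 ± 0.07, edgeR adjusted p = 9.06e-05). Of 17 genes of the H3K36 methylation machinery 5 were higher and 4 lower than the mean of the 3 other groups (median -0.07), shares near the 27.2% and 19.1% of all tested genes, and 0 met the rule.

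The lists of interferon response, germline, Hox and p53 genes held no state-specific gene. Ifi204, Mndal and Ifitm3, interferon-inducible genes that are not on the list, met the rule on the high side. Over all tested genes 27.2% were higher and 19.1% lower than the mean of the 3 other groups. Interferon response genes were 3 higher and 4 lower of 22 against that mean (median -0.07). The counts were 17 and 0 against WT TGF-beta, 0 and 21 against K36M Repsox (median -3.11), and 9 and 4 against K36M TGF-beta (0.19). Germline genes were 1 higher and 5 lower of 15 (median -1.32, or -1.61 at the bound). Hox genes were 15 higher and 1 lower of 28 (median 0.5), with 0 and 21 against WT TGF-beta, 25 and 1 against K36M Repsox, and 13 and 2 against K36M TGF-beta. Genes of p53 and senescence were 10 higher and 1 lower of 16 (median 0.24). Their counts were 4 and 9 against WT TGF-beta (-0.36), 15 and 0 against K36M Repsox (0.86), and 7 and 3 against K36M TGF-beta (0.01). Primitive endoderm genes were 5 and 5 of 14 (median -0.14, or -0.33 at the bound), with Pdgfra on the high side of the rule and Afp, alpha-fetoprotein, on the low side at 0 reads against 43 (at least 4.91-fold lower).

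The low side of the state held few well read genes. Serinc2, a membrane protein of the serine incorporator family, stood at 3.46 and 3.35 CPM in WT Repsox, 49.0 and 50.0 in WT TGF-beta, 17.5 and 16.8 in K36M Repsox, and 23.9 and 24.4 in K36M TGF-beta. Cyp11a1, the cholesterol side-chain cleavage enzyme that starts steroid synthesis, stood at 8.03 and 6.62 CPM against 121 and 120.2, 31.2 and 31.2, and 38.2 and 40.2 CPM. For both genes WT TGF-beta held the highest level and K36M Repsox was the nearest group. Lrp2, the endocytic receptor megalin, had another order: it stood at 22.6 and 21.4 CPM, with 61.0 and 61.4 in WT TGF-beta, 125 and 119 in K36M Repsox, and 91.8 and 97.1 in K36M TGF-beta. Lsp1, a leukocyte actin-binding protein, stood at 3.74 and 3.99 CPM against at least 17.0 CPM in the other 6 libraries, and Pdlim1, an actin-associated adaptor, at 39 and 43.1 against 124 to 162 CPM. Cd274, which encodes the immune checkpoint ligand PD-L1, stood at 1.94 and 1.36 CPM against 5.09 to 11.6 CPM. The kinase gene Pak1, with Gng2, Cotl1, Mdfi, Sgsm1, Trim12c, Flt4 and Stx1a, made up the rest of the named lower genes, with gaps of 2.02-fold to 2.93-fold.

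Some state-specific genes lay side by side. With gene bodies at most 100 kb apart, 41 runs held 89 of the 491 higher genes that had coordinates on mm9, and 2 runs held 4 of 128 lower genes. Beside Mmp3 and Mmp10, the runs of higher genes included the chemokines Ccl11 and Ccl8 (chromosome 11, 81871325 to 81930301) and the aldo-keto reductases Akr1c14 and Akr1c18 (chromosome 13, 4048257 to 4149900). A run of 5 genes of the Ugt1a cluster (chromosome 1, 89991637 to 90116577) is made of genes that share exons, so their reads cannot be told apart. On the low side Sp110 and Sp140, nuclear body proteins, lay side by side (chromosome 1, 87473474 to 87541612). The share that gene density alone would give was not tested.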

How the data were processed

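The authors deposited raw counts in 1 table of 26930 genes and 8 libraries, whose RNA had been cleared of ribosomal RNA. Per the submitters' processing notes, the tools were STAR 2.5.0, HTSeq 0.11.2 and edgeR, and the genome was mm9. Annotation, strand setting and gene filter are not given in the sources used here, so reads of overlapping, antisense or near-identical genes are uncertain. In all libraries together 3195 genes had no read, and GENCODE vM1 held 26763 of the identifiers and gave the mm9 coordinates.

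State-specific genes were found on CPM from library totals, with no pseudocount. Differences from the mean of the 3 other groups and from each group were tested with edgeR 4.0.16 (R 4.3.3). That mean is the average of the fitted log2 levels of the groups. A gene can lie above it and yet below some of the groups, where another group is very low. After filterByExpr 15789 genes remained, the TMM factors were 0.894 to 1.06, and a quasi-likelihood fit of the 4 group means over all 8 libraries left 4 residual degrees of freedom (common coefficient of variation 0.07). The threshold was a Benjamini-Hochberg adjusted p of 0.05. Errors are standard errors worked back from each log2 difference and its quasi-likelihood F statistic, not from the spread of a gene's own libraries alone. The moderated error can understate the spread of single genes, such as Nanog, whose WT TGF-beta libraries lie far apart. The fit was checked on simulated counts. Ratios of rates carry exact 95% intervals that cover counting error only. A group at 0 was set to 3 counts over that group. Principal components, scaling by DESeq2 1.42.0 size factors and DESeq2's Wald test were computed from the same counts.

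The 28 lists hold 547 genes, of which 8 had no entry in the table. The state-specific genes, the markers and the lists were chosen with earlier results of these data known. Genes were named by a rule: the markers, reprogramming factors and a few marker genes always, the 15 largest gaps in each direction at 5 CPM or more (without predicted, unnamed, mitochondrial and histone cluster genes, small RNAs and retrocopies), and from each list up to 5 state-specific genes, or the most strongly called where there was none. Others named (Fap, Pdgfrb, Cdh11, Twist1, Vim, Tbx3, Tbx15, Tbx18, Id1, Id2, Msx1, Bmp4, Smad6, Acta2, Csf1, Serping1, Cxcl12, Il33, Tslp, Mmp10, Dkk3, Dlx1as and the neighbouring genes) were chosen after their values were seen. Some genes that the rule names are not reported here. Promoter sequences came from RefSeq (GRCm38.p6).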

Additional observations from a re-analysis of the deposited data

How the results depend on the processing

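The counts of called genes in the 4 comparisons stayed within 1.5 times of those reported under all 12 alternatives tried, which were other scaling, filters and tests and leaving out each library. State-specific genes depended on the threshold. At 3-fold 314 were higher and 84 lower, and at 1.5-fold 235 were lower. Of the genes of at least 5 CPM, 378 were higher and 69 lower at 1.5-fold, and 146 and 4 at 3-fold. The lower genes of at least 5 CPM were 25 with TMM-scaled library sizes and 29 with DESeq2 size factors. Only 78 of the lower genes were kept by filterByExpr. Leaving out a library can only add genes: the range was 516 to 879 higher and 147 to 360 lower, and 17 to 34 for lower genes of at least 5 CPM. Without WT Repsox replicate 1 there were 836 higher and 360 lower genes, and without replicate 2 there were 879 and 308. No direction of a named gene turned, and Epcam was the named gene that lost its call (adjusted p = 0.312 with DESeq2). Counts for 21 list results moved by over 1.5 times. Libraries with the same replicate number did not deviate together over all tested genes (correlations of -0.02 to 0.032), so no large effect shared by number was seen. Such correlations cannot tell whether libraries of the same number came from the same culture or animal. With the replicate block, 4337 genes were higher and 3072 lower than the mean of the 3 other groups. At these totals, genes of a few reads cannot be ranked by their fold.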

Other observations

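State-specific genes outside the lists were chosen after their values were seen, and carry no test. They are single genes picked from the higher ones: no list of their pathways was tallied. Spry4, a Sprouty inhibitor of receptor tyrosine kinase signalling, stood at 224 and 212 CPM in WT Repsox, 53.8 and 52.5 in WT TGF-beta, 42.7 and 46.9 in K36M Repsox, and 26.7 and 30.4 in K36M TGF-beta. Spry2 stood at 138 and 131 CPM against at most 58.9 CPM elsewhere. The ETS factor genes Etv4 and Etv1 stood at 129 and 126 CPM and at 24.6 and 24.8 CPM, with gaps of 3.0-fold and 3.63-fold. The immediate early genes Egr1 (91.4 and 83.6 CPM, gap 2.38-fold) and Nr4a1 (138 and 115 CPM, gap 2.25-fold) met the rule as well.

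Ahr, the aryl hydrocarbon receptor, stood at 58.4 and 64.1 CPM in WT Repsox, 24.3 and 23.5 in WT TGF-beta, 12.4 and 10.4 in K36M Repsox, and 11.3 and 16.1 in K36M TGF-beta. Its repressor gene Ahrr stood at 14.5 and 14.0 CPM against at most 2.24 CPM elsewhere. Cyp1a1, a classical target gene, stood at 6.51 and 9.89 CPM, with 0.87 and 2.58 in K36M Repsox and 0 in the TGF-beta libraries. Nqo1, another target, lay near the limit of the rule with a gap of 2.03-fold.

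Crabp1, a binding protein of retinoic acid, stood at 197 and 229 CPM in WT Repsox, 1.18 and 2.31 in WT TGF-beta, 15.7 and 18.9 in K36M Repsox, and 16.7 and 16.7 in K36M TGF-beta. Cyp26b1, an enzyme that degrades it, stood at 40.8 and 39.8 CPM against at most 5.42 CPM elsewhere. Slit3, which encodes a guidance protein, stood at 208 and 195 CPM against at most 12.5 CPM, with WT TGF-beta the nearest group, and Ntn1 at 134 and 153 CPM against at most 39.6 CPM. Slit2 and Sema3a met the rule with gaps of 2.23-fold and 3.57-fold. The matrix proteoglycan gene Fmod stood at 55.3 and 51.4 CPM against at most 6.99 CPM, and Mgp, an inhibitor of calcification, at 189 and 228 CPM against at most 25 CPM. In WT TGF-beta the libraries of Fmod were apart from each other (0.94 and 6.99 CPM).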
